A study of Mus musculus with 8 samples.

Results

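The genes of fatty acid uptake and oxidation were examined in embryonic mouse cardiomyocytes cultured on a stiff or a soft silicone substrate. The 32 genes were chosen by name for their part in the pathway, each was matched to 1 Ensembl row of the coding count table, and that table holds 29844 genes in all. The stiff group was 4 libraries from cells on polydimethylsiloxane (PDMS, a silicone rubber of adjustable elasticity) of about 150 kPa, and the soft group was 4 libraries from cells on PDMS of about 10 kPa, a stiffness that the submitters call physiological. Both groups came from E18.5 embryonic hearts of B6.Cg-Tg(HIST1H2BB/EGFP)1Pa/J mice, in which a fluorescent histone fusion is expressed from a transgene whose promoter the labels do not give. All cells had been kept for 4 days, until confluent and beating, in Advanced DMEM with serum, and total RNA was sequenced. The labels do not say whether libraries of a group came from separate litters or cultures, so p-values here reflect variation from library to library that could in part be technical. Libraries are numbered in sample order, and equal numbers on the 2 substrates are not known to share a source.

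The heart takes up long-chain fatty acids, ties them to coenzyme A and passes them into mitochondria as carnitine esters. There, repeated cycles of dehydrogenation, hydration, a further oxidation and thiolysis release acetyl-CoA, while electrons travel through the electron transfer flavoprotein to the respiratory chain. The fetal heart relies largely on glucose and lactate, and the switch towards fatty acids around and after birth is driven by nuclear receptors of the PPAR and ERR families with the coactivator PGC-1α. Carnitine palmitoyltransferase 1, the gatekeeper of entry, has a liver-type isoform (Cpt1a), which predominates in the fetal heart and in fibroblasts, and a muscle-type isoform (Cpt1b), which is the main isoform of the adult heart.

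Library totals of the coding table ran from 27924797 to 34693673 counts on stiff and from 27646471 to 30701041 counts on soft, and the 32 genes took from 0.221% to 0.271% of them on stiff and from 0.205% to 0.288% on soft. Levels below are in CPM, which is the share of a gene in its library total multiplied by 1e+06, with totals scaled by the trimmed mean of M values (TMM). CPM is not divided by transcript length, so levels of different genes are not set against each other. Fold changes are stiff over soft from edgeR's quasi-likelihood test over the 14059 coding genes that passed its filter on low counts. Of the 32 genes 29 passed, and Cpt1b, Plin5 and Ucp3 did not. Summed levels of 16 cardiomyocyte markers ran from 23672 to 31630 CPM on stiff and from 22044 to 37218 CPM on soft, with all 16 above the filter, and soft 4 was the highest library. Those of 16 fibroblast markers ran from 13206 to 18026 CPM on stiff and from 13545 to 21964 CPM on soft, so fibroblast marker RNA was present in every library.

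No gene of the set was called different between stiff and soft. Of the 29 tested, 0 were higher and 0 lower at an adjusted p under 0.05 by edgeR with Benjamini-Hochberg adjustment, against 0% of all coding genes, and the smallest adjusted p of the set was 0.99997. Taken without adjustment, a p below 0.05 was reached by 0 of 29, against 0.925% of all genes, and the groups overlapped for all 29, against 1.29% of all genes that did not overlap. The estimates were above 0 for 12 and below 0 for 17, with a median log2 fold change of -0.03, beside -0.01 over all tested genes. For all 29 the difference between the group means was smaller than the larger of the group SDs. That share was not counted over all tested genes, so it is not read as a trait of the set. DESeq2 and limma-voom called 0 of the set too, and with both 0 reached an unadjusted p under 0.05. In 3 of the alternatives 1 gene did so without being called, which was Acads with limma-voom and a replicate block, Acads without soft 2 and Eci1 without stiff 1. In bulk RNA a lower level can mean fewer cells of a type or less RNA per cell, and these cannot be told apart.

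The width of the intervals shows which differences these libraries do not exclude. The unadjusted 95% interval of a gene's fold reached 1.41-fold to either side at the median of the set, beside 1.51-fold over all tested genes. For 14 of the 29 genes the interval lay within 1.5-fold of no change in both directions, and for 24 within 2-fold. It reached past 2-fold for Acads, Pdk4, Ppara, Ppard and Esrra, so that a change of that size is not excluded in these genes. Calls used p-values adjusted over all tested genes, so the intervals do not give the size of change that would have been called. The narrowest standard error of a log2 fold change was 0.16 and the widest was 0.75, that of Ppara.

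**Figure D1:**
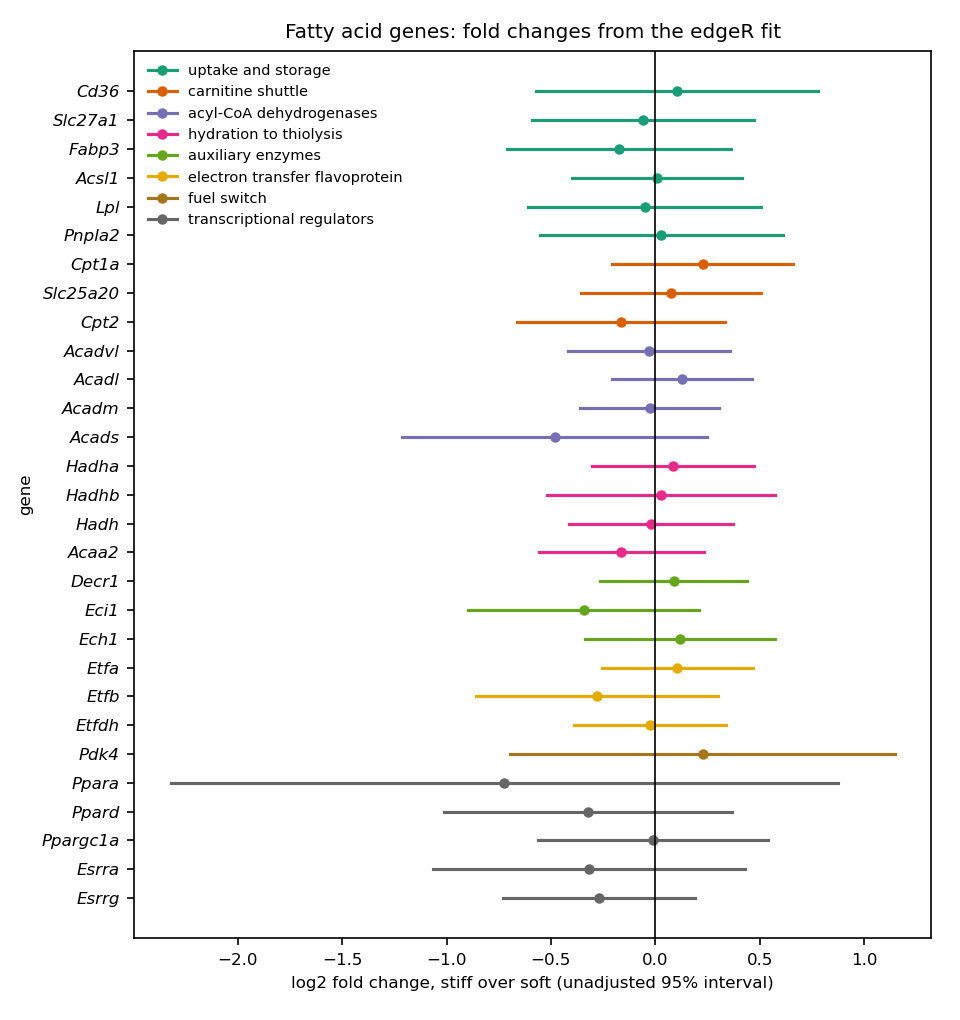
Log2 fold change of each tested gene, stiff over soft (horizontal axis), by gene (vertical axis, coloured by role). Points are edgeR estimates and lines their unadjusted 95% intervals, from 4 stiff and 4 soft libraries. All 29 intervals cross 0, and that of Ppara is the widest.

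Promoter sequences are shown for Hadhb, of the gene pair Hadha and Hadhb, and for Acadm and Cpt1a. The latter 2 genes hold the half-site bound by the nuclear receptors named above. Hadhb was picked because the count ratio of Hadha to Hadhb varied between libraries, as did that of Etfa to Etfb. Hadha and Hadhb encode the alpha and beta subunits of the mitochondrial trifunctional protein and lie head to head on chromosome 5, with 272 bases between their RefSeq spans. The RefSeq promoter windows of GRCm38.p6 (from 250 bases before to 50 bases after a start) share 228 bases, which are identical on opposite strands. The window of Hadhb, chr5:30155003-30155302 on the plus strand, is written with the motif GGGCGG or its reverse complement CCGCCC in capitals, and the start of Hadhb is base 251. The windows of Acadm (chr3:153944594-153944893, minus strand) and Cpt1a (chr19:3323051-3323350, plus strand) are written 5′ to 3′ on the strand of the gene, with the half-site AGGTCA or its reverse complement TGACCT in capitals.
Hadhb: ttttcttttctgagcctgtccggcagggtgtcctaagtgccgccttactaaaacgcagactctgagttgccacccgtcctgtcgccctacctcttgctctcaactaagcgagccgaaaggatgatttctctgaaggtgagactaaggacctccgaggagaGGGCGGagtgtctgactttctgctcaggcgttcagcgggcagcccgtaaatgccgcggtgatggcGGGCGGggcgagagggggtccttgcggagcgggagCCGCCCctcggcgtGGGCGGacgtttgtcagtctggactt
Acadm: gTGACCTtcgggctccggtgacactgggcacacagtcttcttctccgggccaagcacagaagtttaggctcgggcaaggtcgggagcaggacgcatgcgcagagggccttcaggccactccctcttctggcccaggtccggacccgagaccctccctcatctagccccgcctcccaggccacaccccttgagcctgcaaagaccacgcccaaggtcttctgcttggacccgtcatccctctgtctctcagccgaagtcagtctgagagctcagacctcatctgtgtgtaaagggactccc
Cpt1a: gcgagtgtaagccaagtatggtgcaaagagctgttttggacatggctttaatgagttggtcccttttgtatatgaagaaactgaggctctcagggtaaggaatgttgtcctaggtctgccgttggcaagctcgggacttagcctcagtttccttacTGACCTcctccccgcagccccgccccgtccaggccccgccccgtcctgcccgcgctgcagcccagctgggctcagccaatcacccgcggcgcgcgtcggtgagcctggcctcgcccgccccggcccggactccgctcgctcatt

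Of the 32 genes 28 had a promoter in the RefSeq table, with 35 windows in all. On either strand, AGGTCA occurred in the windows of 6 genes (20% of their windows, beside 16.3% of all 32851 windows of the table), which were Acadm, Acadvl, Cd36, Cpt1a, Plin5 and Ucp3. The longer AAGGTCA, which contains it, occurred for Acadm alone (2.86% of the windows, beside 4.72%), and TCAAGGTCA, the consensus of ERR receptors, which contains both, for 0 genes (beside 0.423% of all windows). GGGCGG, the GC box, occurred for 21 genes (68.6% of the windows, beside 35.7%), and 4 times in the window of Hadhb. These matches describe letters within the windows only.

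The carnitine shuttle moves long-chain acyl groups into the mitochondrial matrix. Cpt1a stood at 57.0, 55.7, 57.0 and 48.2 CPM in stiff libraries 1 to 4, against 63.2, 44.9, 37.6 and 40.5 CPM in soft libraries 1 to 4. The stiff libraries lay close together and the soft ones were spread, with soft 1 above every stiff library and the other soft libraries below all of them. The log2 fold change was 0.23 (SE 0.20), with an edgeR adjusted p of 0.99997. Slc25a20, the translocase that exchanges acylcarnitine for carnitine across the inner membrane, averaged 37.4 ± 2.10 CPM on stiff and 35.5 ± 5.16 CPM on soft (SD, n = 4 each). Cpt2, which returns the acyl group to coenzyme A in the matrix, averaged 39.6 ± 7.77 CPM on stiff and 44.4 ± 11.6 CPM on soft. On the log2 scale stiff over soft came to 0.08 (SE 0.20) for Slc25a20 and -0.17 (SE 0.24) for Cpt2, and neither passed the test.

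Cpt1b was listed at 0 counts in all 4 stiff and all 4 soft libraries. A count of 0 allows up to 3 counts by counting error, which is from 0.0876 to 0.106 CPM on stiff and from 0.0988 to 0.107 CPM on soft. The count ratio of Cpt1a to Cpt1b was therefore at least 539, 545, 634 and 551 in stiff libraries 1 to 4, and at least 639.7, 425, 352 and 409 in soft libraries 1 to 4. These bounds rest on counting error and follow the Cpt1a count alone, which was 1618, 1636, 1901 and 1652 on stiff and 1919, 1275, 1057 and 1227 on soft, so no test of the ratio was made. They are limited by the annotation. The RefSeq span of Cpt1b (chr15:89416405-89425862, GRCm38.p6) lies wholly within that of Gm44502 (chr15:89416405-89429927), a readthrough transcript gene that joins it to its neighbour Chkb, and Gm44502 has no row in the coding table. Of 77 protein-coding genes of the table that lie wholly within a longer RefSeq gene and share an end with it, 46 (59.7%) were at 0 in every library, against 23.5% of 19949 others. Those at 0 included Taf9 and several Ugt1a, Pcdha and Pcdhg genes, while Prnp and Zfp91 held 129090 and 46362 counts over all libraries. Where the longer gene is annotated as a long noncoding RNA, as Gm44502 is, Cpt1b and Cntf were at 0. Dohh, Chkb, Rnf8, Cmtr1, Zfp91, Jmjd7, Pla2g4b, Adnp, Dpm1, Lrch4 and Snrpn, each also within such a longer gene, held counts. The genes within a longer gene and the others were not matched for expression. How the deposited counts treated reads that match overlapping genes is not given in the sources used here, and its part in the value of Cpt1b was not tested. Chkb, chosen after its values were seen, also lies wholly within Gm44502 and is among the 77 genes. Unlike Cpt1b it was counted in every library, with 23.4 ± 3.92 CPM on stiff and 19.9 ± 3.84 CPM on soft.

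Uptake and storage genes bring fatty acids to the cell and hold them as triglyceride. Lpl, the lipase that frees fatty acids from circulating triglyceride, stood at 612, 555, 349.6 and 403 CPM in stiff libraries 1 to 4, against 731, 568, 299 and 387 CPM in soft libraries 1 to 4. On both substrates libraries 1 and 2 were above libraries 3 and 4, and the log2 fold change was -0.05 (SE 0.26). Cd36, the fatty acid translocase of the plasma membrane, stood at 123, 143, 62.4 and 117 CPM on stiff, against 150.2, 103, 48.4 and 113 CPM on soft. Library 3 was the lowest of each group. Fabp3, the heart fatty acid binding protein, stood at 48.9, 29.99, 46.0 and 52.2 CPM on stiff, against 44.5, 38.6, 39.8 and 76.9 CPM on soft. Soft 4 stood alone above the rest, and the log2 fold change of Fabp3 was -0.17 (SE 0.25), or 0.12 without soft 4.

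Acsl1, which activates long-chain fatty acids with coenzyme A, averaged 107 ± 17.8 CPM on stiff and 106 ± 21.7 CPM on soft, with a log2 fold change of 0.01 (SE 0.19). Slc27a1, a fatty acid transport protein, averaged 21.1 ± 3.44 CPM on stiff and 22.0 ± 4.23 CPM on soft. Pnpla2, the adipose triglyceride lipase, averaged 17.5 ± 4.50 CPM on stiff and 17.2 ± 2.73 CPM on soft. None of these genes passed the test. Plin5, a lipid droplet coat protein that binds droplets to mitochondria, had 0, 0, 0 and 7 counts on stiff, against 18, 3, 8 and 16 counts on soft. The ranges of Plin5 overlap, and without the filter its edgeR adjusted p was 0.99985. Lpl, Cd36 and Pnpla2 are also expressed by other cell types. Of 10 adipocyte markers 8, including Adipoq and Plin1, were at 0 in every library, and the list summed to 0 to 1.16 CPM on stiff and 0.263 to 3.34 CPM on soft. The 15 endothelial markers summed to 397 to 569 CPM on stiff and 410.2 to 559.7 CPM on soft, with Cldn5 at 0 in every library. The 14 leukocyte markers summed to 122 to 174 CPM on stiff and 133 to 189 CPM on soft. The 11 mural cell markers summed to 2428 to 3599 CPM on stiff and 2629 to 4155 CPM on soft. The part of these cells in the levels of Lpl and Cd36 was not tested.

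**Figure D2:**
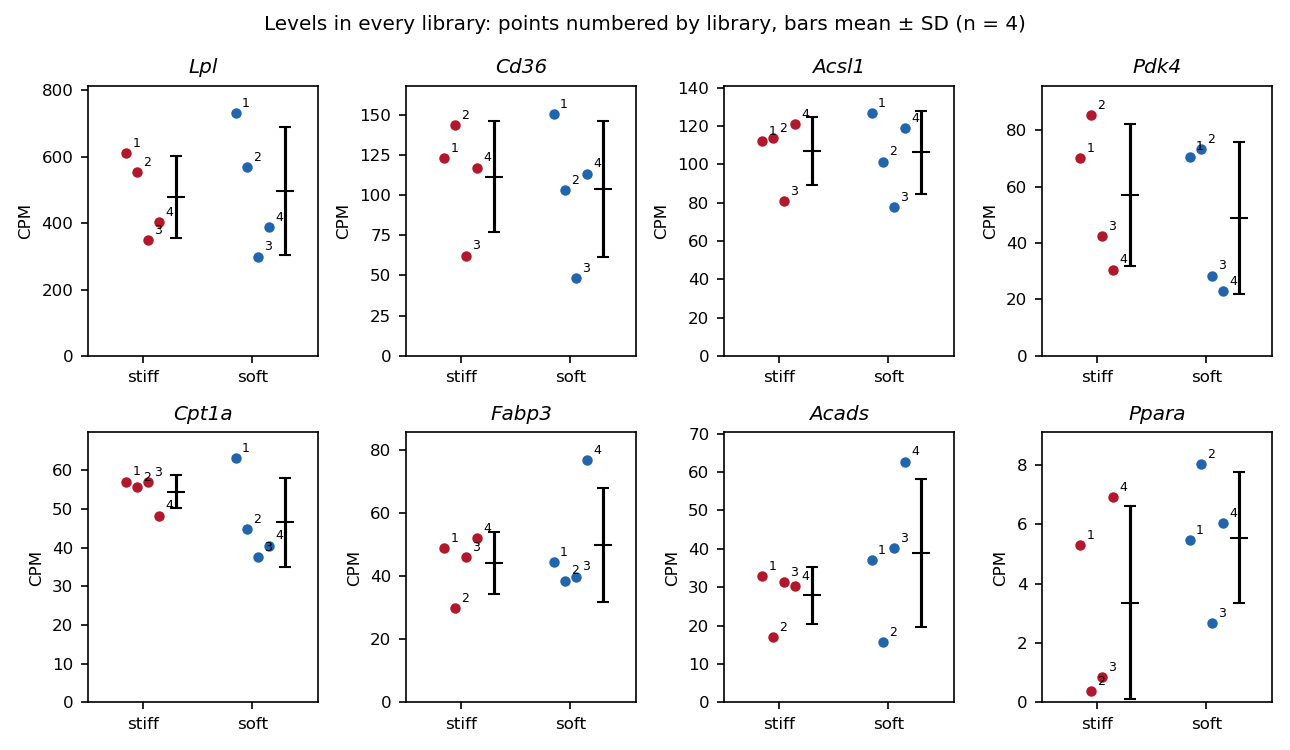
CPM (vertical axis) of 8 genes on stiff and soft substrates (horizontal axis). Points are libraries, marked with their number, and bars are the mean ± SD of 4 libraries. Stiff and soft overlap in every panel; library 3 is the lowest of each group for Lpl, Cd36 and Acsl1, and soft 4 is the highest point for Fabp3 and Acads.

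The acyl-CoA dehydrogenases open each turn of the cycle and differ in the chain length they accept. Acadl, the long-chain enzyme, stood at 190.4, 217, 208 and 225 CPM on stiff, against 205, 176, 172 and 216 CPM on soft. The spread was small on both substrates, and the log2 fold change was 0.13 (SE 0.16). Acads, the short-chain enzyme, stood at 33.0, 17.0, 31.3 and 30.2 CPM on stiff, against 37.0, 15.8, 40.2 and 62.7 CPM on soft. Library 2 was the lowest of each group and soft 4 was above all other libraries. The log2 fold change of Acads was -0.48 (SE 0.34), and its unadjusted p of 0.180 was the smallest of the 29 genes. The estimate was -0.15 without soft 4, -0.30 without stiff 2 and -0.74 without soft 2. Acadm, the medium-chain enzyme, averaged 176 ± 12.2 CPM on stiff and 179.7 ± 17.7 CPM on soft, a log2 fold change of -0.03 (SE 0.16). Acadvl, the very-long-chain enzyme, averaged 109.9 ± 10.8 CPM on stiff and 112 ± 25.2 CPM on soft. Of the 4 enzymes 0 passed the test.

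The next steps are hydration, a second oxidation and thiolysis, which the trifunctional protein carries out for long chains. Hadha stood at 151, 175, 158 and 180.4 CPM on stiff, against 143, 129, 141 and 213 CPM on soft. Hadhb stood at 78.4, 93.3, 43.9 and 82.1 CPM on stiff, against 91.0, 83.1, 41.8 and 76.1 CPM on soft. Library 3 was the lowest of each group for Hadhb, and Hadha was second lowest of each group there, by a smaller margin below its mean. The count ratio of Hadha to Hadhb was 1.93, 1.87, 3.60 and 2.20 in stiff libraries 1 to 4, and 1.57, 1.55, 3.37 and 2.80 in soft libraries 1 to 4. The count ratio thus varied between libraries on both substrates and was highest in library 3 of each group. How often other gene pairs vary apart as much was not counted. The mean log2 ratio was 1.21 ± 0.44 on stiff and 1.13 ± 0.57 on soft (SD, n = 4 each), and the two-sided exact permutation p was 0.886, where 0.0286 is the smallest p that 4 against 4 allows. The difference turned negative without stiff 3, soft 1 or soft 2, and lay between -0.14 and 0.28 when any 1 library was left out. Acaa2, the thiolase of medium and shorter chains, stood at 129.8, 114, 149 and 108 CPM on stiff, against 149, 103, 137 and 173 CPM on soft, with overlapping groups and a log2 fold change of -0.16 (SE 0.19). Hadh, the dehydrogenase of shorter chains, averaged 64.9 ± 5.71 CPM on stiff and 65.9 ± 11.7 CPM on soft.

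**Figure D3:**
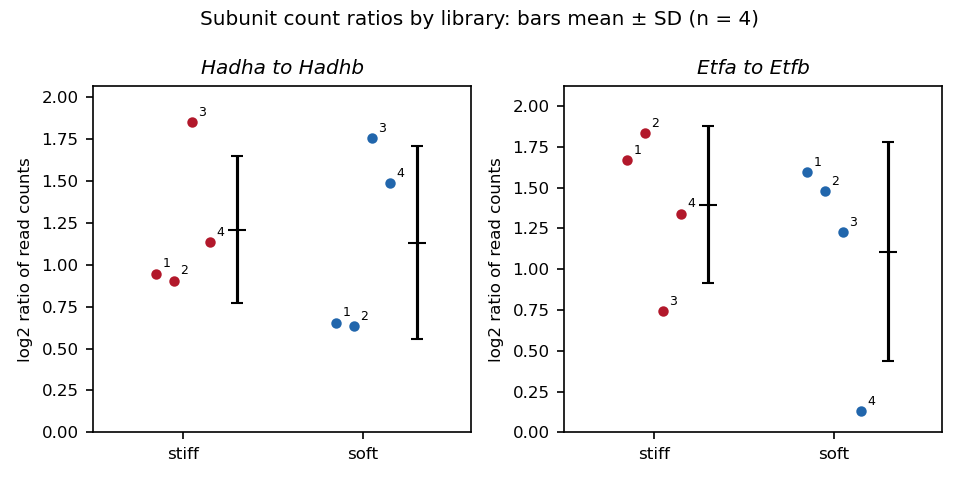
Log2 ratio of the read counts of the subunit genes (vertical axis) on stiff and soft substrates (horizontal axis), Hadha to Hadhb on the left and Etfa to Etfb on the right. Points are libraries, marked with their number, and bars are the mean ± SD of 4 libraries. Libraries 3 of both substrates have the highest Hadha to Hadhb ratios, and soft 4 has the lowest Etfa to Etfb ratio.

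The auxiliary enzymes reshape the double bonds of unsaturated chains. Decr1, the dienoyl-CoA reductase, stood at 97.9, 117, 87.4 and 92.9 CPM on stiff, against 87.6, 84.7, 95.8 and 104 CPM on soft. Eci1, an enoyl-CoA isomerase, stood at 33.1, 21.2, 18.0 and 19.8 CPM on stiff, against 35.5, 21.4, 28.3 and 31.6 CPM on soft. Library 1 was the highest of each group for Eci1, whose log2 fold change was -0.34 (SE 0.26), and -0.57 without stiff 1. Ech1, a dienoyl-CoA isomerase, averaged 50.3 ± 6.03 CPM on stiff and 46.3 ± 12.9 CPM on soft. The log2 fold changes of Decr1 and Ech1 were 0.09 (SE 0.17) and 0.12 (SE 0.22), and none of these enzymes passed the test.

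The electron transfer flavoprotein carries electrons from the dehydrogenases to its oxidoreductase in the inner membrane. Etfa, the alpha subunit, stood at 103, 106, 73.2 and 101 CPM on stiff, against 92.8, 92.8, 88.6 and 81.8 CPM on soft. Etfb, the beta subunit, stood at 32.3, 29.8, 43.8 and 39.8 CPM on stiff, against 30.7, 33.3, 37.8 and 74.7 CPM on soft. Soft 4 had the highest Etfb level and the lowest soft level of Etfa. The log2 fold change of Etfb was -0.28 (SE 0.27), and 0.11 without soft 4. The count ratio of Etfa to Etfb was 3.17, 3.57, 1.67 and 2.53 on stiff, against 3.02, 2.78, 2.34 and 1.09 on soft. The mean log2 ratio was 1.40 ± 0.48 on stiff and 1.11 ± 0.67 on soft (SD, n = 4 each), with a two-sided exact permutation p of 0.543, and both ratio tests had p = 0.886 after adjustment over the 2 exact tests. The difference of 0.29 became -0.04 without soft 4 and 0.51 without stiff 3. Etfdh, the oxidoreductase, stood at 95.4, 103, 86.4 and 119 CPM on stiff, against 103, 103, 86.2 and 118 CPM on soft, a log2 fold change of -0.03 (SE 0.17).

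Pdk4 and Ucp3 are PPAR target genes that accompany fatty acid use. Pdk4, the kinase that shuts off pyruvate dehydrogenase, stood at 70.2, 85.4, 42.5 and 30.5 CPM on stiff, against 70.6, 73.3, 28.4 and 22.9 CPM on soft. Libraries 1 and 2 lay above libraries 3 and 4 on both substrates, as for Lpl, and the highest level was 3.72 times the lowest. The log2 fold change of Pdk4 was 0.23 (SE 0.42), which was -0.03 without stiff 2, below 0 also without soft 4 and 0.50 without soft 2. Ucp3, a mitochondrial carrier of muscle, had 6, 0, 1 and 0 counts on stiff, against 52, 1, 12 and 1 counts on soft. Soft 1 held most of the Ucp3 counts, the groups overlapped, and without the filter the edgeR adjusted p was 0.99985.

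The transcriptional regulators had 5 of 5 estimates below 0, of which Ppargc1a turned positive relative to cardiomyocyte markers, with limma-voom and without stiff 1, stiff 2, soft 1 or soft 2, and Esrra without soft 4; 0 of 5 passed the test. Ppara, the PPAR of oxidative tissues, stood at 5.29, 0.374, 0.840 and 6.92 CPM on stiff, against 5.46, 8.02, 2.67 and 6.04 CPM on soft. Stiff 2 and stiff 3 held 11 and 28 Ppara counts, below the 75 of the lowest soft library, while the other stiff libraries held 150 and 237, and the log2 fold change was -0.72 (SE 0.75). It was -0.35 without stiff 2, -0.40 without stiff 3 and -1.36 without stiff 4, and -1.45 with limma-voom. Esrrg, an ERR receptor of oxidative muscle, stood at 55.5, 49.0, 32.4 and 54.1 CPM on stiff, against 65.6, 61.9, 59.8 and 42.9 CPM on soft, a log2 fold change of -0.27 (SE 0.22). Esrra, its relative, averaged 27.4 ± 9.63 CPM on stiff and 34.2 ± 17.8 CPM on soft, with soft 4 at 59.8 CPM. The log2 fold change of Esrra was -0.32 (SE 0.35), and 0.10 without soft 4. Ppard, the widely expressed PPAR, averaged 12.0 ± 4.52 CPM on stiff and 14.98 ± 3.47 CPM on soft. Ppargc1a, which encodes PGC-1α, averaged 32.6 ± 8.55 CPM on stiff and 32.8 ± 9.11 CPM on soft, a log2 fold change of -0.01 (SE 0.26).

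Levels of the genes varied from library to library on both substrates. The highest level was over 2 times the lowest for 11 of the 29 genes, from 1.25 times for Acadm to 21.4 times for Ppara. Of the 29 genes 8 had their highest level on stiff and 21 on soft, with 10 in soft 4 and 9 in soft 1. Neither the spread over 2 times nor this split was counted over all tested genes, so they are not read as traits of the set. The lowest level was in soft 3 for 9 genes, in soft 2 for 7 and in stiff 2 for 6. The mean deviation of the 29 genes from their own means was 0.16, -0.15, -0.19 and 0.01 on the log2 scale in stiff libraries 1 to 4, against 0.18, -0.08, -0.17 and 0.24 in soft libraries 1 to 4. The cardiomyocyte markers deviated in the same libraries by 0.01, -0.22, 0.00 and 0.16 on stiff, against -0.10, -0.33, -0.22 and 0.70 on soft. The lowest stiff and the lowest soft library had the same number for 11 of the 29 genes (37.9%), beside 34.6% of all tested genes, which is near the background.

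**Figure D4:**
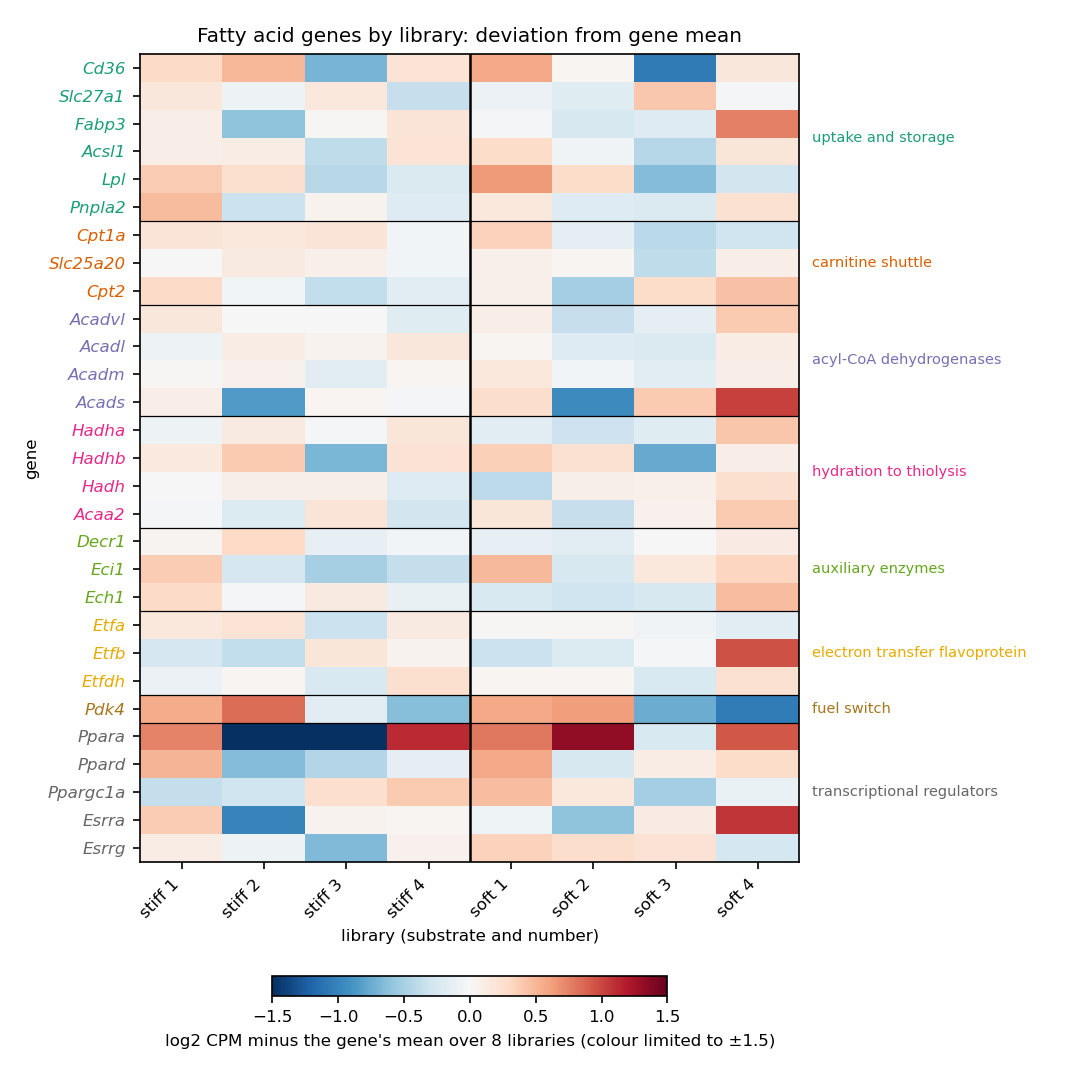
Deviation of log2 CPM from each gene's mean over 8 libraries (colour, limited to 1.5 either way), by gene (vertical axis, grouped by role) and library (horizontal axis, 4 stiff then 4 soft). Fabp3, Acads, Etfb and Esrra are highest in soft 4; Lpl, Cd36, Acsl1 and Hadhb are low in libraries 3 of both substrates; no gene separates stiff from soft.

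Other genes of fatty acid metabolism were taken from lists of the pathway, and 0 passed in either direction in any of them. Of 16 other mitochondrial oxidation genes 14 were tested, with 5 estimates above and 9 below 0. Eci2, an enoyl-CoA isomerase, came to -0.20 (SE 0.17) on the log2 scale and Slc22a5, the carnitine importer, to 0.28 (SE 0.28), while Acadsb, a branched-chain acyl-CoA dehydrogenase, averaged 114 ± 14.6 CPM on stiff and 123 ± 28.9 CPM on soft. Of 20 peroxisomal genes 19 were tested, with 7 above and 12 below 0. Decr2, a peroxisomal dienoyl-CoA reductase, came to 0.29 (SE 0.23) on the log2 scale and Pex7, a peroxisomal import receptor, to -0.31 (SE 0.25), while Hsd17b4, the bifunctional enzyme, averaged 187 ± 15.5 CPM on stiff and 187 ± 13.95 CPM on soft.

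Of 17 further uptake and activation genes 14 were tested, with 8 above and 6 below 0. Slc27a6, a fatty acid transport protein known from the heart, stood at 3.38, 7.83, 6.75 and 4.12 CPM on stiff, against 0.988, 2.60, 4.52 and 1.25 CPM on soft. The groups overlap through soft 3 and stiff over soft was 1.24 on the log2 scale (SE 0.63), with an unadjusted edgeR p of 0.0671 and an adjusted p of 0.99997. Fabp4, a binding protein of endothelium and adipocytes, came to -0.81 on the log2 scale (SE 0.65), and Vldlr, a lipoprotein receptor, averaged 312 ± 19.3 CPM on stiff and 304 ± 39.8 CPM on soft. Of 20 triglyceride storage and lipolysis genes 19 were tested, with 2 above and 17 below 0. Their median log2 fold change was -0.27, beside -0.01 over all genes. Without soft 4 the genes were 8 above and 11 below, with a median of -0.09. Without soft 2 they were 1 above and 18 below, with a median of -0.34. With all libraries kept the median was -0.15 both with limma-voom and with edgeR and a replicate block. It lay from -0.28 to -0.25 under the other alternatives that kept all libraries. Agpat1 and Dgat1, acyltransferases of glycerolipid synthesis, had log2 fold changes of -0.46 (SE 0.26) and -0.44 (SE 0.25), and Lpin1, a phosphatidate phosphatase, averaged 102 ± 30.5 CPM on stiff and 111 ± 20.9 CPM on soft.

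Ketone body genes had 5 of 6 tested, with 3 above and 2 below 0. Bdh1, the hydroxybutyrate dehydrogenase, came to -0.39 on the log2 scale (SE 0.45), and Oxct1, the enzyme that activates ketone bodies, averaged 467 ± 58.8 CPM on stiff and 466 ± 28.2 CPM on soft. All 13 genes of pyruvate dehydrogenase control were tested, with 8 above and 5 below 0. Dld, a subunit of that complex, came to 0.26 (SE 0.17) on the log2 scale and Mpc2, a pyruvate carrier subunit, to -0.16 (SE 0.20), while the kinase gene Pdk1 averaged 529.8 ± 104 CPM on stiff and 494 ± 72.4 CPM on soft. Of 21 other nuclear receptors and coregulators 20 were tested, with 13 above and 7 below 0. Med1, a Mediator subunit that binds nuclear receptors, stood at 84.4, 85.6, 83.2 and 98.5 CPM on stiff, against 79.1, 66.0, 62.9 and 73.5 CPM on soft. It was the 1 gene of all these lists whose groups did not overlap, beside 1.29% of all tested genes, so that this is no more than the background. Stiff over soft was 0.32 for Med1 on the log2 scale (SE 0.17), with an adjusted edgeR p of 0.99997. Rxrb, the dimer partner of PPARs, came to -0.46 on the log2 scale (SE 0.26), and Prkaa2, a catalytic subunit of AMP-activated kinase, averaged 264 ± 39.5 CPM on stiff and 242 ± 69.5 CPM on soft.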

How the data were processed

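The authors deposited raw read counts, whole numbers per Ensembl gene and library, in a table of coding genes; the table of noncoding genes was not used. The submitters' processing notes name the build GRCm38 and, for alignment tools, TopHat2 2.0.14, TopHat and Bowtie2, next to Cufflinks, HTSeq 0.6.1, FastQC 0.11.2, edgeR and DESeq2, without roles; for strand handling, annotation release and filters the entry is: not given in the sources used here. Symbols were assigned by Ensembl ID (29150 of 29844 matched). In 13 of the 32 genes the RefSeq span overlaps another gene, among them Fabp3, Etfb, Etfdh and Esrra, and counts of these 13 are uncertain by the reads shared.

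The count tests ran under R 4.3.3 in edgeR 4.0.16, and alternatives in DESeq2 1.42.0 and limma 3.58.1. The filter was filterByExpr (minimum count 10, minimum total 15), with TMM scaling and a robust quasi-likelihood F test of substrate, and no other term. Benjamini-Hochberg adjustment covered all 14059 tested genes, with calls under 0.05. Ratios used counts with 0.5 added to each and a two-sided exact permutation test. Deviations used log2 CPM with a prior count of 2. Intervals and floors cover counting or between-library error, and reads without molecular identifiers are not independent molecules. The members and lists were chosen with earlier results of these data known. By rule all 32 genes are named, with every library's value for ratio genes and for the gene of smallest p and highest CPM in each role; Cd36, Ppara, Slc27a6 and Med1 were added after their values were seen. From each pathway list the genes with the 2 smallest p-values and the highest CPM are named, except 1 gene that is not reported here. Libraries are numbered in sample order. Chi-square comparisons of counts found no library pair within sampling noise (44.8 to 224 per degree of freedom over 28 pairs).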

Additional observations from a re-analysis of the deposited data

Results flagged for a closer look

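Of 62 sets of 4 libraries examined (29 genes and 2 ratios on each substrate), 8 held a library whose gap to its nearest neighbour exceeded the Dixon limit for 4 values. That limit flags about 1 in 20 sets of independent, normally distributed values. CPM need not be so distributed, and the sets share the same 8 libraries. The rate over all tested genes was not counted, so no excess over chance is read from the flags. In soft 4 the flagged values were Fabp3 at 76.9 CPM (38.6 to 44.5 CPM in the other soft libraries), Hadha at 213 CPM (129 to 143), Ech1 at 65.6 CPM (38.8 to 40.6) and Etfb at 74.7 CPM (30.7 to 37.8), each above the rest. Soft 4 also had the highest summed cardiomyocyte markers, at 37218 CPM, and the highest fibroblast markers, at 21964 CPM; their part in these levels was not tested. Slc25a20 was low in soft 3, at 27.8 CPM (37.1 to 38.7 in the others). On stiff, Cpt1a was low in stiff 4 at 48.2 CPM (55.7 to 57.0 in the others), Acads in stiff 2 at 17.0 CPM (30.2 to 33.0) and Etfa in stiff 3 at 73.2 CPM (101 to 106).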

How the results depend on the processing

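No gene of the set and no gene of the pathway lists was called under any alternative run: RLE, upper quartile or no scaling factors, no filter, a filter of 1 CPM in 4 libraries, DESeq2 or limma-voom in place of edgeR, limma-voom or edgeR with a replicate block, and each library left out. Over all coding genes the count of calls was 0 throughout, except 8 with limma-voom and the number as a replicate block; at an unadjusted p under 0.05 edgeR gave 130 genes, 360 with the replicate block and 473 with no filter, DESeq2 322, limma-voom 181 and limma-voom with the replicate block 432. Same-numbered stiff and soft libraries deviated together (correlation 0.104 to 0.305 across genes over 4 pairs, with 3 of 4 stiff libraries closest to their own number), but nothing in the labels pairs them. Of 290 values of single genes under settings that keep all libraries, 8 changed sign: relative to cardiomyocyte markers Lpl (0.023), Acadvl (0.018), Acadm (0.0011), Hadh (0.020) and Ppargc1a (0.021), with limma-voom Pnpla2 (-0.0028) and Ppargc1a (0.0063), and with limma-voom and the replicate block Ppargc1a (0.0048). With 1 library left out, 41 of 232 values changed sign, in 17 of 29 genes, all of them uncalled, and the cause was not tested. Their log2 fold changes then ran over these ranges: Cd36 (-0.13 to 0.34), Slc27a1 (-0.12 to 0.083), Fabp3 (-0.28 to 0.12), Acsl1 (-0.12 to 0.12), Lpl (-0.23 to 0.20), Pnpla2 (-0.15 to 0.13), Slc25a20 (-0.024 to 0.13), Acadvl (-0.13 to 0.12), Acadm (-0.083 to 0.022), Hadhb (-0.16 to 0.21), Hadh (-0.14 to 0.069), Decr1 (-0.00044 to 0.15), Etfb (-0.42 to 0.11), Etfdh (-0.12 to 0.056), Pdk4 (-0.031 to 0.50), Ppargc1a (-0.16 to 0.16) and Esrra (-0.52 to 0.10). The Hadha to Hadhb difference was -0.028 as medians and ran from -0.14 to 0.28 without 1 library; the Etfa to Etfb difference ran from -0.037 to 0.51. With the replicate block in a sign-flip exact permutation test both ratios had p = 0.625. The Cpt1a to Cpt1b ratio gave no value under any alternative, since Cpt1b was at 0. The median over the set ran from -0.11 to 0.07.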
